A study of Mus musculus with 6 samples.

Results

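The cytosolic ribosomal protein genes were followed in mouse naive CD4+ T cells stimulated with or without the chemokine CCL19. Members were taken by gene symbol alone: every gene in the count table named Rpl or Rps with a number and at most 1 further letter, together with Rplp0, Rplp1, Rplp2 and Rpsa. This gave 82 of the 24470 genes in the table, 50 of the large subunit and 32 of the small subunit. Male mice of strain C57BL/6J, of unstated age, gave spleen and skin-draining lymph nodes, from which the cells were purified with magnetic beads. Both groups were stimulated for 6 h in 200 µL of medium by immobilized anti-CD3, which engages the T cell receptor complex, and anti-CD28, which supplies costimulation, each coated at 1 µg/mL. Recombinant mouse CCL19, a ligand of the receptor CCR7, was present in 3 samples and absent from 3. No unstimulated sample was compared here, so the values show the chemokine added to an activating stimulus, not the stimulus itself. The labels do not say whether replicates are separate mice or separate cultures. The p-values therefore measure no more than sample-to-sample spread, and some of it may be technical.

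Each cytosolic ribosome carries a single copy of nearly every ribosomal protein, and the acidic stalk proteins are present in several. Ribosomal protein mRNAs are among the most abundant of a growing cell. They begin with a C followed by a run of pyrimidines, the 5′ terminal oligopyrimidine (TOP) tract. Through this tract the kinase mTOR and the RNA-binding protein Larp1 set how well they are translated, and this can change with no change in mRNA level. A resting lymphocyte holds few ribosomes and makes many more before it divides, so the output of these genes, of the nucleolar factors that assemble ribosomes and of RNA polymerase I bears on its growth. RNA sequencing of whole cells counts mRNA and does not see translation.

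The tract was looked for at the annotated start sites. RefSeq promoters on GRCm38.p6 were matched for 61 of the 82 members, each running from 250 bases before to 50 bases after an annotated start. At the annotated start, 14 of 61 members (23%) had a C followed by at least 4 pyrimidines, against 3.01% of the 27025 genes in the same set. A start annotated a few bases away hides the tract, so no match says only that these letters are not at that base. Windows of 40 bases before and 20 bases after the start are given for 4 members with the tract and for Rps27l. Neither of the 2 annotated Rps27l starts has the tract at that base. In the window at chr9:66946046-66946105, however, a C followed by 4 pyrimidines begins at the next base. Rps27l is shown beside its near-copy Rps27 because of their levels per kilobase. This pair had the highest and the lowest of the small subunit genes with a mean of at least 10 CPM (counts scaled to library size). Capitals mark a pyrimidine tract at the annotated start, which is the first base after the 40th.
Rps27, chr3:90213629-90213688, minus strand: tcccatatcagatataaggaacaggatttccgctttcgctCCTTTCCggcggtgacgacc
Rps6, chr4:86857348-86857407, minus strand: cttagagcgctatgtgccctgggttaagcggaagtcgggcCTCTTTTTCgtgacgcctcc
Rplp2, chr7:141447611-141447670, plus strand: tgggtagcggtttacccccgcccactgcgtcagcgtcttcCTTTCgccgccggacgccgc
Rpl38, chr11:114668540-114668599, plus strand: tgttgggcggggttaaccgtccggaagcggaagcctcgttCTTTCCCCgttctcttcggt
Rps27l, chr9:66946046-66946105, plus strand: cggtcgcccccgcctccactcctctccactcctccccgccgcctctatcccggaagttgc
Rps27l, chr9:66946373-66946432, plus strand: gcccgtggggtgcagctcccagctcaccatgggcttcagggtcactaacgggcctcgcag
Other promoter motifs were searched on both strands of the whole window. GGAAG, the core of sites for Ets factors such as Gabpa, stood in 91.8% of the 61 members and 73.9% of all genes, and the longer GCGGAAG, which contains it, in 27.9% and 6.53%. ATGGC, the core letters of YY1 sites, stood in 59% and 44.2%. TATAAA stood in 11.5% and 15.7%. The 13 tested members with the tract at the annotated start had a median log2 fold change of -0.05. The 45 tested members with a promoter and no tract at that base had -0.04. As a shifted start hides the tract, these 45 may hold members that have it. The split therefore cannot show whether the tract bears on the response to CCL19.

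The 6 libraries held 16978736 to 27429898 counts. CPM were scaled with TMM factors, which set libraries to a common centre, and 11666 genes had enough counts to test. T cell markers were high, with Cd4 at 542 to 695 CPM and Cd3e at 315 to 352 CPM. Markers of other cells were low: summed levels were 18.7 to 27.2 CPM for 8 B cell genes, 19.5 to 30.4 for 10 myeloid genes, 17.8 to 21.4 for 6 NK cell genes, 12.4 to 17.2 for the 2 CD8 genes, 11.9 to 19.6 for 7 erythroid genes and 1.25 to 2.18 for 6 dendritic cell genes. The dendritic markers Xcr1, Clec9a and Batf3 and the NK receptor Ncr1 each stood at 0 in at least 1 library. In summed level over 11 T cell genes the groups did not overlap, with 5054 to 5588 CPM with CCL19 and 5613 to 6239 CPM without. Mitochondrially encoded genes took 0.941% to 1.19% of counts with CCL19 and 0.811% to 1.05% without. The part of these differences in the results was not tested, and in bulk samples fewer cells of a type cannot be told apart from less RNA per cell.

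Ribosomal protein genes took overlapping shares of all counts in the groups. They took 5.68%, 6.21% and 6.33% with CCL19 (6.07% ± 0.346, SD, n = 3) and 6.70%, 6.50% and 6.15% without (6.45% ± 0.28, n = 3). The groups overlapped, as no-CCL19 replicate 3 lay below CCL19 replicates 2 and 3. CCL19 replicate 1 was lowest of all, and no-CCL19 replicate 3 lowest of its group, and these were the 2 libraries with the fewest counts. The difference in share was -0.378 percentage points, and -0.181 without CCL19 replicate 1. Large subunit genes took 3.44% ± 0.195 with CCL19 and 3.65% ± 0.148 without, and small subunit genes 2.64% ± 0.151 and 2.80% ± 0.133. The ratio of summed large to summed small subunit counts was 1.305, 1.308 and 1.301 with CCL19 and 1.291, 1.311 and 1.312 without. Library shares of both subunits moved together, and the mean ratios, 1.305 and 1.304, differed by less than the spread within either group.

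**Figure D1:**
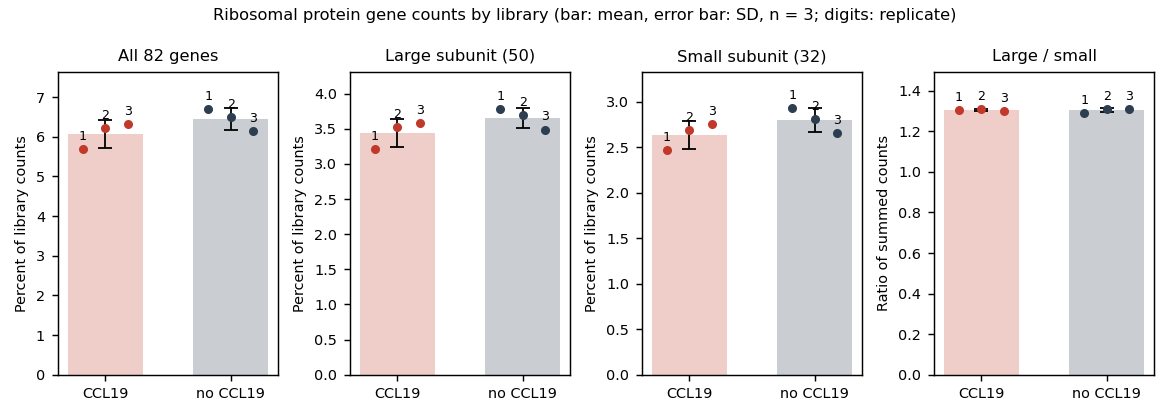
Percent of each library's counts on all 82 cytosolic ribosomal protein genes, on the 50 large and the 32 small subunit genes, and the ratio of summed large to summed small subunit counts (y axes), for CCL19 and no-CCL19 libraries. Points are libraries with their replicate number, bars the mean and error bars the SD (n = 3). The shares overlap between groups, from 5.68% to 6.33% with CCL19 and 6.15% to 6.70% without, and the ratio stays between 1.291 and 1.312.

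Of the 82 members, 79 were tested, 47 large and 32 small, and none was called. edgeR's quasi-likelihood test, with Benjamini-Hochberg adjustment, called 0 members in either direction at 0.05, where it called 0% of all 11666 tested genes higher and 0% lower. The lowest member adjusted p in edgeR was 0.121. At an unadjusted p under 0.05, edgeR had 1 member higher and 4 lower, against 14.5% of all tested genes higher and 13% lower. DESeq2 gave 77 members an adjusted p and called 0 in either direction, where it called 6.55% of 9613 genes higher and 5.6% lower; it had 1 member higher and 7 lower at an unadjusted p under 0.05, against 13% of 11666 genes higher and 11.8% lower. limma-voom called 0 members and 0% of genes, with 1 member higher and 5 lower at an unadjusted p under 0.05, against 14.7% of genes higher and 13% lower. The authors' deposited table of changed genes lists 630 genes higher and 538 lower with CCL19, and 0 of them are members. The edgeR count of members at an unadjusted p under 0.05 leaned on single libraries: it was 0 without CCL19 replicate 1 and without no-CCL19 replicate 1, 2 without no-CCL19 replicate 2, and 13 without no-CCL19 replicate 3.

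The size of the differences could be bounded for most members. The 77 members with a mean of at least 10 CPM averaged 678 CPM at the median, from 53.4 to 2633 CPM, and their log2 fold changes (CCL19 over no CCL19) ran from -0.31 to 0.20. For 61 of these 77, the 95% interval of the fold change lay within 1.25-fold in both directions, and for all 77 within 1.5-fold. By subunit, 39 of 46 large and 22 of 31 small subunit genes were bounded within 1.25-fold. These intervals are of single genes, each unadjusted.

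**Figure D2:**
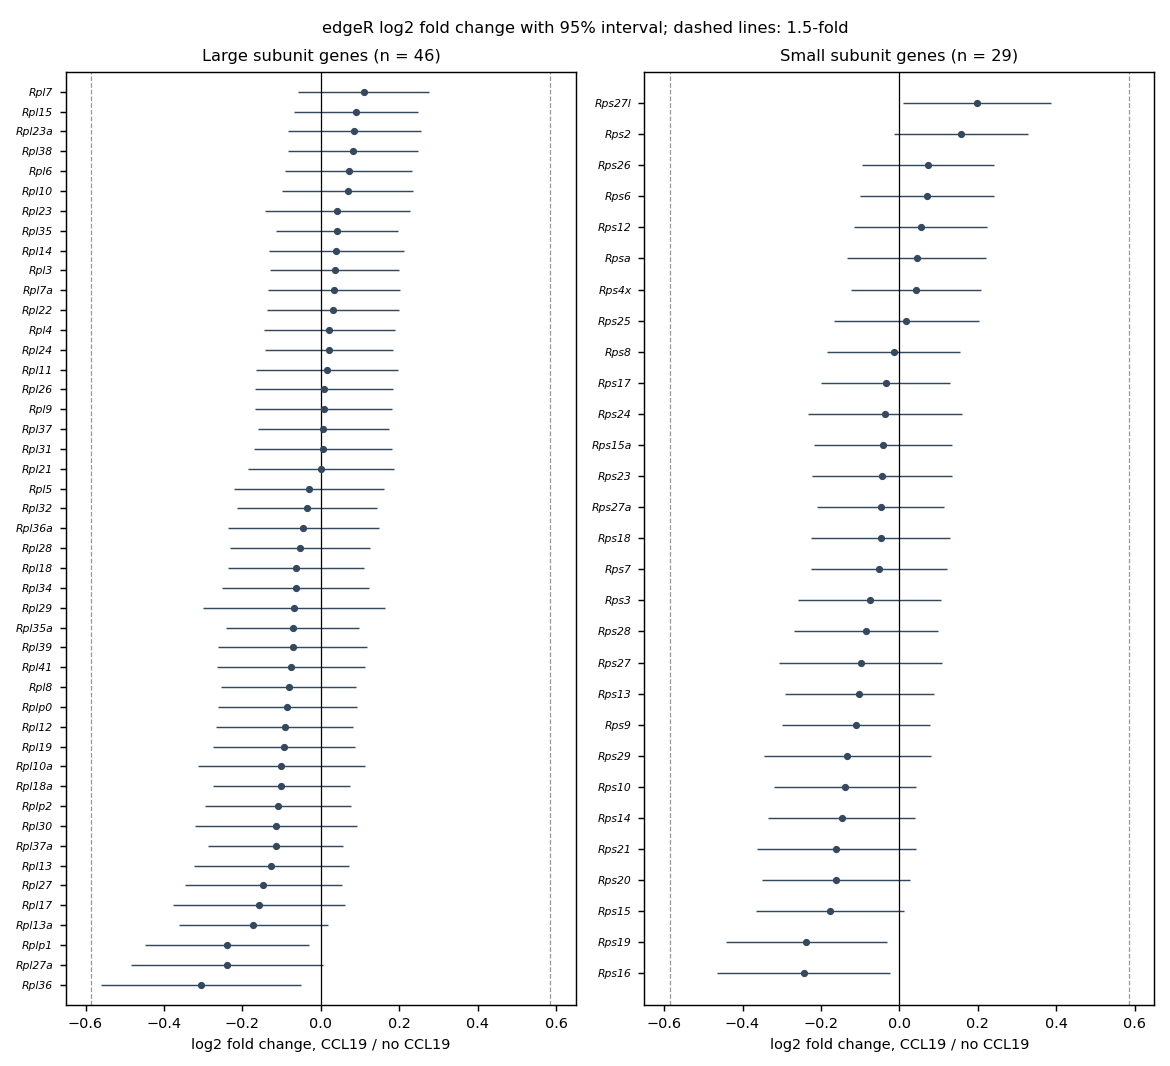
edgeR log2 fold change (x axis, CCL19 over no CCL19) of 46 large and 29 small subunit genes with a mean of at least 10 CPM (rows), with 95% intervals. Every interval lies inside the dashed lines at 1.5-fold; estimates run from -0.31 for Rpl36 to 0.20 for Rps27l.

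More members lay below 0 than above, by small amounts. Among tested members 50 had a log2 fold change below 0 and 29 above, with a median of -0.05 (-0.04 for large, -0.05 for small subunit genes), while the median of all tested genes was 0.00. With 1 library left out the median ran from -0.09 (without no-CCL19 replicate 3) to -0.01 (without CCL19 replicate 1), and it was -0.02 without no-CCL19 replicate 1, -0.07 without CCL19 replicate 2 and -0.08 without CCL19 replicate 3. Much of the shared movement was between libraries within a group. Of the 77 members with at least 10 CPM, 68 stood below their own 6-library mean in CCL19 replicate 1 and 63 in no-CCL19 replicate 3, against 25 and 32 in CCL19 replicates 2 and 3 and 16 and 23 in no-CCL19 replicates 1 and 2. The groups did not overlap for 6 members. CCL19 libraries were all above for 5, Rps27l, Rps2, Rpl7, Rpl15 and Rpl6 (15.4% of all tested genes), and all below for 1, Rpl12 (14.4% of all tested genes). Rpl6 was named here after its values were seen.

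**Figure D3:**
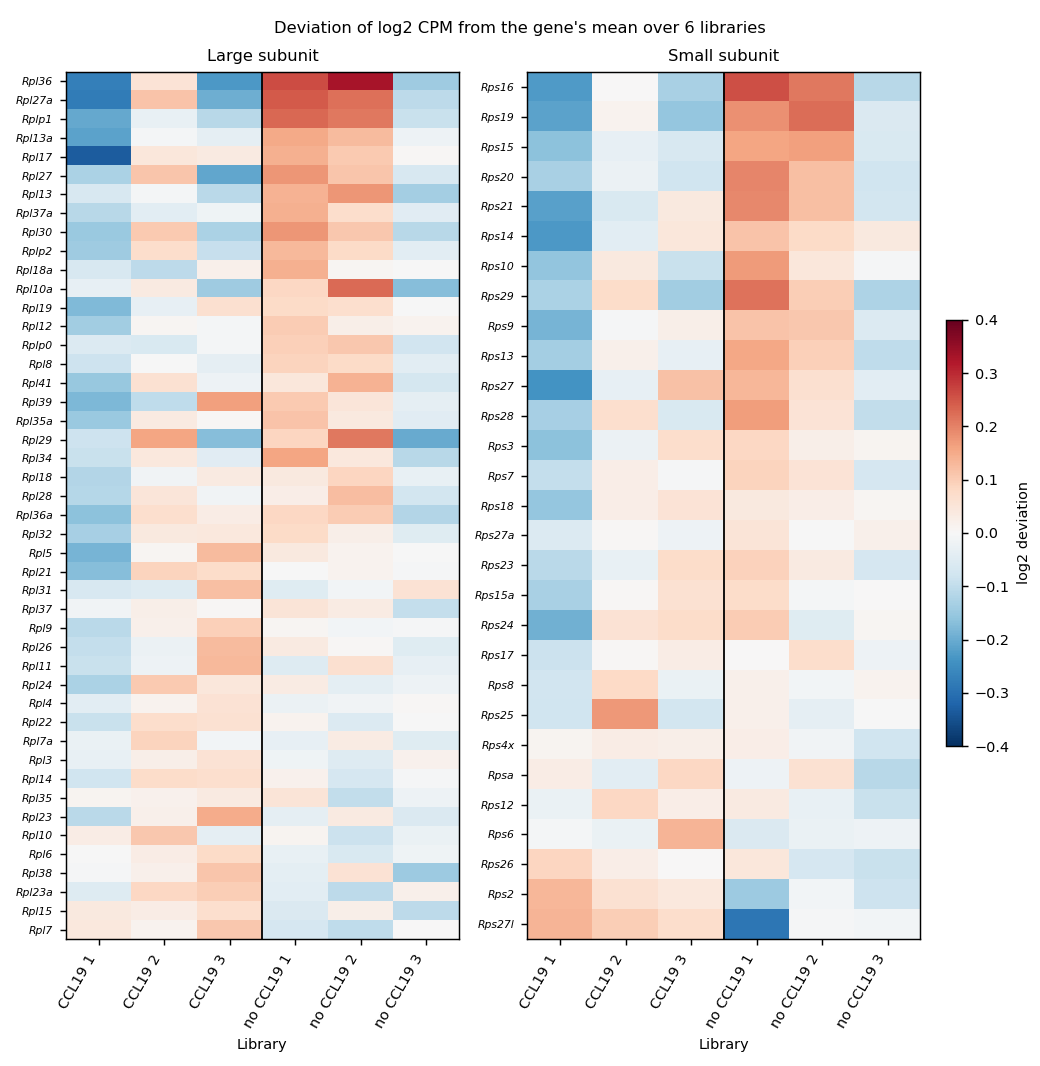
Deviation of log2 CPM from the gene's mean over 6 libraries (colour) for 46 large and 29 small subunit genes with a mean of at least 10 CPM (rows, ordered by log2 fold change) in each library (columns). CCL19 replicate 1 and no-CCL19 replicate 3 are blue for most genes, 66 and 61 of the 75 shown, and no-CCL19 replicate 1 is red for most, with 16 of 75 below their mean.

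Among large subunit genes, all 4 of the stalk lay below 0. edgeR and DESeq2 called 0 of the 4, with 1, Rplp1, at an unadjusted edgeR p under 0.05. Of all tested genes, 13% were lower at that p. The P stalk recruits the translation elongation factors; Rplp0 anchors pairs of Rplp1 and Rplp2 to the ribosome next to Rpl12. Rplp1 stood at 1902, 2147 and 2031 CPM with CCL19 and 2570, 2538 and 2063 CPM without. Its no-CCL19 replicate 3 lay below CCL19 replicate 2, so the groups overlapped, and the log2 fold change was -0.24 ± 0.10 (SE, edgeR adjusted p = 0.134). Rplp2 stood at 877, 1016 and 908 CPM with CCL19 and 1059, 1021 and 941 CPM without, again overlapping (-0.11 ± 0.09, edgeR adjusted p = 0.434). Rplp0 stood at 2532, 2520 and 2614 CPM against 2806, 2831 and 2494 CPM, with no-CCL19 replicate 3 lowest of all 6 (-0.09 ± 0.08, edgeR adjusted p = 0.532). Rpl12, the member whose CCL19 libraries were all lower, stood at 1678, 1861 and 1840 CPM with CCL19 and 1984, 1878 and 1869 CPM without. The gap between the groups was smaller than the spread within either, and the log2 fold change was -0.09 ± 0.08 (edgeR adjusted p = 0.492).

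Rpl36 had the lowest edgeR p of the family. It lies on chromosome 17 (mm10, 56613395 to 56614246) and encodes a small protein on the surface of the large subunit. Its levels were 243, 305 and 251 CPM with CCL19 and 352, 369 and 266 CPM without. CCL19 replicate 2 lay above no-CCL19 replicate 3, so the groups overlapped. The log2 fold change was -0.31 ± 0.12 (edgeR adjusted p = 0.121, DESeq2 adjusted p = 0.0624). Rpl36 passed edgeR's threshold without no-CCL19 replicate 3 (-0.44, edgeR adjusted p = 0.0475), where edgeR called 4.32% of all tested genes. It also passed with no filter on low counts (-0.31, edgeR adjusted p = 0.0215), where edgeR called 10.1%. Rpl27a stood at 295, 388 and 313 CPM with CCL19 and 425, 417 and 333 CPM without (-0.24 ± 0.11, edgeR adjusted p = 0.190). Rpl13a, which also has a role outside the ribosome in silencing mRNAs in macrophages, stood at 1575, 1817 and 1781 CPM against 2030, 1995 and 1800 CPM (-0.17 ± 0.09, edgeR adjusted p = 0.223). In both, no-CCL19 replicate 3 lay inside the range of the CCL19 libraries. By DESeq2, too, the calls turned on that library: without no-CCL19 replicate 3 it called 7 of 77 members lower, where it called 5.77% of all genes lower and 7.45% higher, and 0 members higher. These 7 were Rpl36 (-0.43, DESeq2 adjusted p = 0.00298), Rplp1, Rpl27a, Rps15, Rps16, Rps19 and Rps20. With any other library left out DESeq2 called 0 members, and Rps20 was named here after its values were seen. Some of these fits called few genes at all. Without CCL19 replicate 1, 20 of 5967 genes were called higher and 35 lower. Without CCL19 replicate 2 the calls were 56 and 67 of 8013, and without no-CCL19 replicate 1 they were 60 and 45 of 3287. Without CCL19 replicate 3 they were 905 and 799 of 9836, and without no-CCL19 replicate 2 they were 604 and 406 of 8607.

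Rpl5 and Rpl11 form, with a ribosomal RNA of the large subunit, the particle that binds Mdm2 and stabilises p53 when ribosome assembly fails. Rpl5 stood at 782, 893 and 971 CPM with CCL19 and 913, 898 and 889 CPM without (-0.03 ± 0.09, edgeR adjusted p = 0.860). Rpl11 stood at 595, 625 and 694 CPM against 612, 663 and 619 CPM (0.01 ± 0.08, edgeR adjusted p = 0.929). For both, the CCL19 libraries spanned the whole no-CCL19 range, with replicate 1 lowest and replicate 3 highest. Rpl22, a T-lineage tumour suppressor dispensable for bulk translation, stood at 337, 376 and 374 CPM against 362, 345 and 358 CPM (0.03 ± 0.08). Rpl38, which favours translation of selected Hox mRNAs in the embryo, stood at 206, 210 and 223 CPM against 201, 215 and 187 CPM (0.08 ± 0.08). Rpl10a stood at 387, 406 and 359 CPM against 419, 463 and 352 CPM (-0.10 ± 0.10). The groups of these last 3 overlapped, and their edgeR adjusted p ran from 0.519 to 0.839.

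At the peptide exit tunnel, where the new protein leaves the large subunit, 5 of 8 genes were above 0 and 3 below, with a median log2 fold change of 0.01. edgeR and DESeq2 called 0 of the 8, and edgeR had 0 at an unadjusted p under 0.05. Rpl4, which lines the tunnel, stood at 2424, 2520 and 2598 CPM with CCL19 and 2456, 2473 and 2502 CPM without. The no-CCL19 range lay inside the CCL19 range (0.02 ± 0.08, edgeR adjusted p = 0.891). Rpl23a, a docking site for the signal recognition particle, stood at 351, 385 and 389 CPM against 353, 339 and 369 CPM (0.09 ± 0.08, edgeR adjusted p = 0.513). Rpl39 stood at 141, 149 and 179 CPM against 172, 165 and 156 CPM, with both extremes in CCL19 libraries (-0.07 ± 0.09, edgeR adjusted p = 0.631). Rpl3, which lies near the peptidyl transferase centre, stood at 835, 868 and 888 CPM against 843, 822 and 864 CPM (0.03 ± 0.08). Rpl7 and Rpl15 had CCL19 libraries all higher by small margins. Rpl7 stood at 1127, 1106 and 1179 CPM against 1046, 1021 and 1097 CPM (0.11 ± 0.08, edgeR adjusted p = 0.388), and Rpl15 at 281, 278.5 and 286 CPM against 262, 277.7 and 254 CPM (0.09 ± 0.07, edgeR adjusted p = 0.456).

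Of the small subunit, the head, the lobe that contacts the tRNAs, had 12 of 14 genes below 0, a median log2 fold change of -0.08. edgeR and DESeq2 called 0 of the 14, with 2 lower and 0 higher at an unadjusted edgeR p under 0.05. The 2 are 14.3% of the list, close to the 13% of all tested genes that were lower at that p. Rps19, the gene most often mutated in Diamond-Blackfan anaemia, stood at 581, 681 and 605 CPM with CCL19 and 765, 787 and 647 CPM without. CCL19 replicate 2 lay above no-CCL19 replicate 3 (-0.24 ± 0.10, edgeR adjusted p = 0.129, DESeq2 adjusted p = 0.0646). Rps16, whose tail reaches towards the tRNA in the decoding region, stood at 526, 616 and 563 CPM against 736, 713 and 570 CPM (-0.24 ± 0.10, edgeR adjusted p = 0.144). Rps15 stood at 1168, 1282 and 1253 CPM against 1462, 1468 and 1257 CPM (-0.18 ± 0.09, edgeR adjusted p = 0.205). In all 3 genes, no-CCL19 replicates 1 and 2 were the highest libraries and no-CCL19 replicate 3 lay among those with CCL19. Of 15 genes mutated in Diamond-Blackfan anaemia, a failure of red cell production, 11 were below 0 and 4 above (median -0.05). edgeR and DESeq2 called 0 of the 15, and 1, Rps19, was at an unadjusted edgeR p under 0.05. This is 6.67% of the list, against the same 13% of all tested genes.

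After Rps4l and Rps27l, Rps2 had the largest positive difference of the small subunit. The protein lies at the mRNA entry channel. Its levels were 1137, 1081 and 1068 CPM with CCL19 and 937, 1029 and 979 CPM without, so all CCL19 libraries were higher (0.16 ± 0.08, edgeR adjusted p = 0.215). Rps6, the protein that S6 kinases phosphorylate downstream of mTOR, stood at 789, 779 and 872 CPM against 762, 779 and 783 CPM. The groups overlapped, and the log2 fold change was 0.07 ± 0.08 (edgeR adjusted p = 0.600). Rps26, which contacts the mRNA upstream of the start codon, stood at 606, 582 and 573 CPM against 590, 546 and 538 CPM (0.07 ± 0.08), and Rpsa, also known as the laminin receptor, at 1710, 1626 and 1772 CPM against 1653, 1747 and 1552 CPM (0.04 ± 0.08). Rps3, which also has reported roles in NF-kB signalling in T cells, stood at 1873, 2066 and 2204 CPM against 2222, 2134 and 2116 CPM (-0.08 ± 0.09). Rps27a, made as a fusion with ubiquitin, stood at 580, 605 and 594 CPM against 624, 602 and 611 CPM (-0.05 ± 0.08). The X-linked Rps4x, at 1094, 1108 and 1102 CPM against 1106, 1075 and 1028 CPM, had 0.04 ± 0.08. Rps28 and Rps29 are small proteins of the head. Rps28 stood at 203, 233 and 214 CPM against 250, 231 and 208 CPM (-0.09 ± 0.09), and Rps29 at 1058, 1217 and 1049 CPM against 1345, 1239 and 1062 CPM (-0.13 ± 0.10). The groups overlapped in each of these 7 genes, and the edgeR adjusted p ran from 0.406 to 0.762.

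Near-copies of ribosomal protein genes that fall within the naming rule were low or silent, apart from Rps27l. Rps27l differs from Rps27 at few residues and is known as a p53 target. It stood at 58.5, 56.9 and 55.9 CPM with CCL19 and 43.5, 53.03 and 52.8 CPM without, with all CCL19 libraries higher (0.20 ± 0.09, edgeR adjusted p = 0.164). Rps27 stood at 997, 1151 and 1275 CPM against 1290, 1230 and 1144 CPM, overlapping (-0.10 ± 0.10, edgeR adjusted p = 0.535). Per kilobase of transcript, among small subunit genes with a mean of at least 10 CPM, Rps27 was highest at a mean of 3424 CPM per kb and Rps27l lowest at 99.5. Without no-CCL19 replicate 1, the lowest library for Rps27l, its log2 fold change was 0.11 (edgeR adjusted p = 0.576). Rps4l had 25, 48 and 36 counts with CCL19 and 21, 52 and 11 without (0.52 ± 0.36, edgeR adjusted p = 0.375), and Rpl39l had 5 to 13 counts in a library (0.28 ± 0.55, edgeR adjusted p = 0.779). These 2 passed the filter on low counts, and their intervals exceeded 1.5-fold. The testis paralogue Rpl10l had 0 counts in all 6 libraries, the muscle paralogue Rpl3l had 2 counts in no-CCL19 replicate 1 and 0 elsewhere, and Rpl32l had 1 to 4 counts; these 3 were not tested.

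Levels per length differed among members far more than between groups. For the 77 members with at least 10 CPM, the SD over members of log2 CPM per kb was 1.07 to 1.12 in each library, and Spearman's rho of this level between libraries was 0.985 to 0.997 across these genes, which are not independent and share transcript lengths. Of the 100 tested genes with the highest CPM per kb, among 11060 with a length, 58 were members. Rplp1 was the highest large subunit gene at 4426 CPM per kb, and Rpl15 the lowest of those with at least 10 CPM at 142. The annotated length used for Rps15a, 5179 bp, and for Rps20, 3706 bp, is long for the family; their values per kb are divided by it.

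Fold changes of all genes fell with GC content, and those of members did so less evenly. Over 10 classes of transcript GC content, the median log2 fold change of all tested genes went from 0.12 in the lowest class to -0.16 in the highest. Members spanned 41.3% to 60.8% GC. The 39 members of lower GC had a median log2 fold change of 0.00 and the 39 of higher GC -0.09. By class the member medians did not fall steadily. They were -0.16 in the lowest class (1 member), 0.14 in the next (4 members) and -0.21 in the highest (4 members). In class 6, with 13 members, the median was 0.02. When GC content and transcript length entered the fit as an offset, the log2 fold change became -0.13 for Rpl36 (edgeR adjusted p = 0.335), -0.10 for Rps19 (0.349), -0.12 for Rplp1 (0.231), -0.03 for Rps15 (0.803) and -0.26 for Rps16 (0.129). The median over members was then -0.03. All of these except Rps16 were nearer 0 than without the offset. Other named members moved either way. Away from 0, Rpl27a went from -0.24 to -0.27, Rps2 from 0.16 to 0.24 and Rpl38 from 0.08 to 0.18. Towards 0, Rpl7 went from 0.11 to 0.05.

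**Figure D4:**
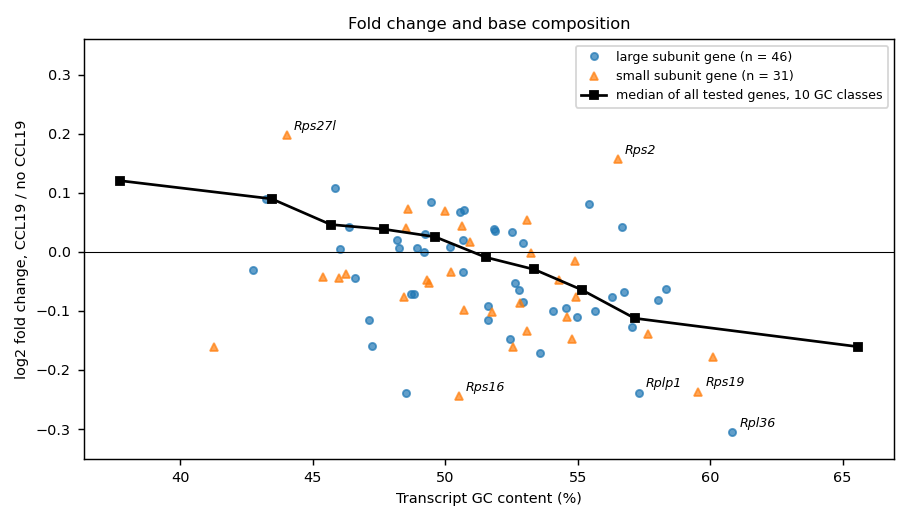
log2 fold change (y axis, CCL19 over no CCL19) against transcript GC content in percent (x axis) for the 46 large and 31 small subunit genes with a mean of at least 10 CPM, with the median of all tested genes in 10 GC classes as a black line. The line falls from 0.12 to -0.16, and Rpl36 and Rps19, at -0.31 and -0.24, are the most GC-rich of the labelled genes.

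Features of the loci were examined for effects on counting. Members lay on 19 chromosomes, with 14 on chromosome 7. Another counted gene overlapped 30 members, on the same strand for 25, mostly snoRNA genes in introns. The 29 tested members that host 56 snoRNA genes had a median log2 fold change of -0.03 and the other 50 had -0.05. Ribosomal protein genes have many processed copies in the genome. At the median 53.5% of the 50-base words of a member's transcript occurred in another annotated gene, and for Rps27 98.6% did. For reads that match several places, the rule was not given in the sources used here. Levels of members with close copies are therefore uncertain. The 39 members with fewer shared words had a median of -0.07 and the 39 with more had -0.04.

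Some ribosomal proteins and paralogues have symbols that fall outside the naming rule. Fau, which is made as a fusion with a ubiquitin-like protein, stood at 541, 585 and 578 CPM with CCL19 and 720, 682 and 573 CPM without (-0.21 ± 0.09, edgeR adjusted p = 0.155). Rack1, the scaffold on the small subunit, had -0.05, Rps3a1 0.02, and the paralogues Rpl36al 0.24, Rpl7l1 0.20 and Rpl22l1 0.07. edgeR and DESeq2 called 0 of these 5, and Rpl36al and Rpl7l1 were at an unadjusted edgeR p under 0.05.

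DESeq2 called most of the genes that build ribosomes higher with CCL19, and edgeR called none of them. Of 48 ribosome assembly factors, all tested, 48 had a log2 fold change above 0 in the main scaling and 47 with scaling factors taken without the ribosomal protein genes, with a median of 0.33. DESeq2 called 34 of the 48 higher and 0 lower, against 0 of 77 ribosomal protein genes. edgeR called 0 and had 42 higher and 0 lower at an unadjusted p under 0.05, and limma-voom called 0. The DESeq2 count was 2 without CCL19 replicate 1, 6 without CCL19 replicate 2 and 42 without CCL19 replicate 3. It was 8 without no-CCL19 replicate 1, 37 without no-CCL19 replicate 2 and 28 without no-CCL19 replicate 3. DESeq2 calls over all genes also varied between fits. With all 6 libraries it called 630 of 9613 genes higher. Higher calls were 20 of 5967 without CCL19 replicate 1, 56 of 8013 without CCL19 replicate 2 and 60 of 3287 without no-CCL19 replicate 1. They were 905 of 9836 without CCL19 replicate 3, 604 of 8607 without no-CCL19 replicate 2 and 709 of 9522 without no-CCL19 replicate 3. Counts given below for other lists come from the same fits. edgeR called 37 of the 48 without CCL19 replicate 3 and 14 without no-CCL19 replicate 3. Over all genes it then called 772 of 11871 and 235 of 11872 higher. Ncl, the nucleolar protein nucleolin, stood at 2744, 2644 and 2347 CPM with CCL19 and 1648, 1949 and 2155 CPM without, all CCL19 libraries higher (0.43 ± 0.10, DESeq2 adjusted p = 0.00273, edgeR adjusted p = 0.0505). Nop58, a core protein of snoRNA particles, stood at 456, 428 and 382 CPM against 263, 313 and 343 CPM, also without overlap (0.46 ± 0.10, DESeq2 adjusted p = 0.00205). The smallest values of the list were 0.00 for Imp3, a protein of early small subunit precursors, and 0.03 for Sbds, which helps release Eif6 from the large subunit; both were named here after their values were seen. These lists share libraries with the members and were chosen with results of these data known, and a difference between a list and the members was not tested.

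Medians of other arms of ribosome production lay between those of the members and of the assembly factors, a difference that was not tested. Chaperones and import receptors of ribosomal proteins had a median of 0.27 over 15 genes, and DESeq2 called 7 higher and 0 lower. Tsr2, the chaperone of Rps26, stood at 57.7, 61.6 and 59.1 CPM with CCL19 and 42.8, 51.9 and 51.1 CPM without, with no overlap (0.29 ± 0.09, DESeq2 adjusted p = 0.0397), and Heatr3, which brings Rpl5 into the nucleus, had 0.27 (DESeq2 adjusted p = 0.0279). Both client genes, Rps26 and Rpl5, were not called. The RNA polymerase I machinery had a median of 0.19 over 15 genes, with 14 above 0 and 1, Polr1b, called higher by DESeq2 (0.40, DESeq2 adjusted p = 0.0128). Mitochondrial ribosomal proteins, which build the separate ribosome of the mitochondrion, had 61 of 78 above 0, a median of 0.13 and 5 called higher by DESeq2. Without CCL19 replicate 1 the 3 DESeq2 counts of higher genes were 1, 0 and 1, without CCL19 replicate 2 they were 2, 0 and 1, without no-CCL19 replicate 1 they were 2, 0 and 0, and without no-CCL19 replicate 3 they were 6, 3 and 3. The RNA polymerase I count was 3 without CCL19 replicate 3 and 2 without no-CCL19 replicate 2. edgeR called 0 genes in each of these lists; at an unadjusted p under 0.05 it had 10, 10 and 23 higher and 0, 0 and 2 lower.

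**Figure D5:**
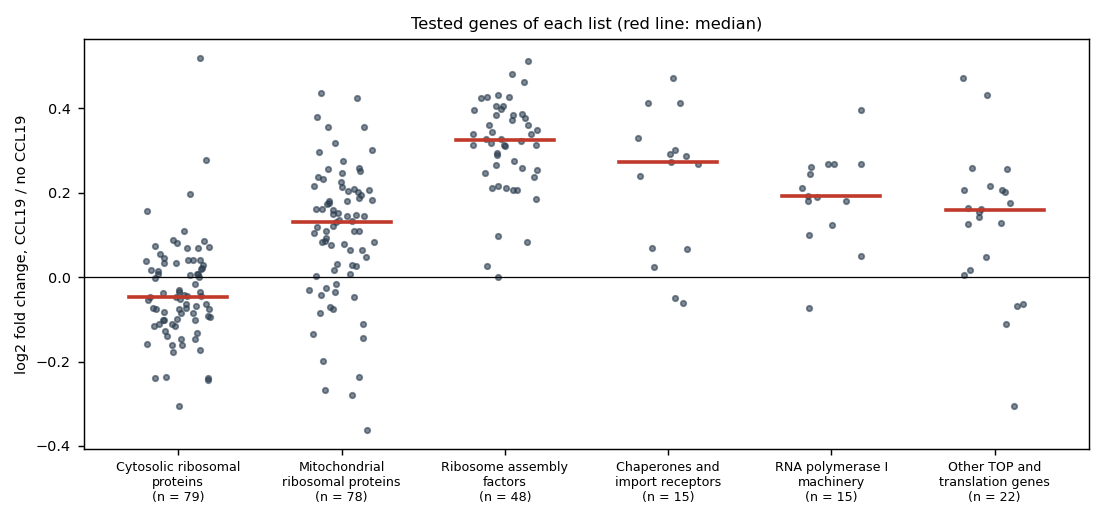
log2 fold change (y axis, CCL19 over no CCL19) of every tested gene (points) in 6 lists, with the list's median as a red line. The 79 cytosolic ribosomal protein genes centre on -0.05, the 48 ribosome assembly factors on 0.33, and the other lists between 0.13 and 0.27.

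Over 22 other mRNAs with a TOP tract or a role in translation, 18 were above 0 with a median log2 fold change of 0.16, and DESeq2 called 5 higher, Npm1, Nap1l1, Eef1g, Hnrnpa1 and Snhg1, and 0 lower. It called 2 higher without CCL19 replicate 1, 1 without CCL19 replicate 2 and 2 without no-CCL19 replicate 1. Npm1, a nucleolar shuttling protein, stood at 1295, 1292 and 1180 CPM with CCL19 and 820, 876 and 1096 CPM without (0.43 ± 0.10, DESeq2 adjusted p = 0.00281, edgeR adjusted p = 0.0505). Eef1a1, the elongation factor that brings tRNA to the ribosome and a classical TOP mRNA, stood at 7261, 7545 and 7437 CPM against 7260, 6901 and 7345 CPM, overlapping (0.05 ± 0.08). Eef2, which moves the ribosome along the mRNA, had -0.06, and the TOP mRNA Tpt1 had -0.07. Among 14 regulators of TOP mRNAs the median was 0.11 and DESeq2 called 3 higher and 0 lower; it called 0 without CCL19 replicate 1, 0 without CCL19 replicate 2 and 1 without no-CCL19 replicate 1. Larp1, which binds the tract, stood at 781, 687 and 592 CPM with CCL19 and 471, 584 and 586 CPM without. Its groups did not overlap, with the lowest CCL19 library at 592 and the highest other at 586 CPM (0.33 ± 0.11, DESeq2 adjusted p = 0.0317, edgeR adjusted p = 0.0864). Mtor itself had -0.01. edgeR called 0 in both lists, with 8 higher and 1 lower, and 6 higher and 1 lower, at an unadjusted p under 0.05.

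Genes of the p53 pathway, read because of Rpl5, Rpl11 and Rps27l, gave values in both directions. Of 11 tested, DESeq2 called 1 higher and 1 lower, and edgeR 0, with 3 higher and 1 lower at an unadjusted p under 0.05. Cdkn1a, a cell cycle inhibitor, stood at 91.7, 89.8 and 76.3 CPM with CCL19 and 48.5, 71.4 and 66.6 CPM without (0.47 ± 0.12, DESeq2 adjusted p = 0.00972). Bbc3, which promotes cell death, stood at 30.9, 34.3 and 31.0 CPM against 48.9, 49.4 and 38.0 CPM (-0.51 ± 0.10, DESeq2 adjusted p = 0.00256). The groups did not overlap for either gene, and Mdm2, the partner of Rpl5 and Rpl11, had 0.05. Of the 13 genes outside the family named here as called by DESeq2, 4 were called without CCL19 replicate 1, 3 without CCL19 replicate 2, 4 without no-CCL19 replicate 1, 11 without CCL19 replicate 3, 11 without no-CCL19 replicate 2 and 12 without no-CCL19 replicate 3.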

How the data were processed

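Messenger RNA of 3 CCL19 and 3 no-CCL19 samples was analysed, grouped by the sample titles and treatments. The authors deposited raw read counts per gene, whole numbers without normalization, with NCBI Gene IDs and coordinates per the file headers. STAR 2.5, featureCounts 1.5.0-p1 and mm10 are named in the submitters' processing notes, as is DESeq2 1.28.1, and libraries were made with a TruSeq kit per the labels. Settings for strand and multiple matches, and the annotation's release, were not given in the sources used here. In addition, the authors' deposited table of changed genes gives directions in words.

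All genes were fitted together by the quasi-likelihood F test of edgeR 4.0.16 after TMM scaling and filterByExpr, in R 4.3.3, with Benjamini-Hochberg adjustment over 11666 genes and a threshold of 0.05. The biological coefficient of variation was 8.72%. DESeq2 1.42.0 (Wald test) and limma 3.58.1 (voom) were also run. Log2 fold changes, their SE and 95% intervals are edgeR's, and CPM are scaled by TMM. Other settings were DESeq2 size factors, TMM without the members, no filter, a minimum of 1 CPM in 3 or more libraries, a replicate block, a robust prior, an offset for GC content and length (splines of 5 degrees of freedom) and each library left out. Lengths and GC came from GENCODE M21 transcripts and covered 94.8% of tested genes. Promoters came from RefSeq on GRCm38.p6. The tests were tried on data simulated with the same variation for every gene. There edgeR recovered 35.8% of planted 1.3-fold changes, 80% of 1.5-fold and 87.5% of 2-fold, and 8.51% of its calls were false. For 1.3-fold changes DESeq2 recovered 32.1% and limma-voom 33.3%, with 8.59% and 7.41% of calls false. These shares hold for the simulated data and do not give the sensitivity of the tests in the real libraries.

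Members and lists were chosen with earlier results of these data known, and are described by counts and medians without a test of the list. Members were named by role, by the 6 smallest edgeR p in each direction, and by the highest and lowest level per length of each subunit. Named genes of other lists were chosen by role or because a tool called them. Figures were drawn with matplotlib 3.10.9. Some genes are not reported here by name and are left out of the plots with a row per gene.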

Additional observations from a re-analysis of the deposited data

How the results depend on the processing

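Members called by edgeR numbered 0 in all settings but 2: with no filter on low counts it called 1, Rpl36, and leaving out 1 library at a time it called 0 to 1, again Rpl36 without no-CCL19 replicate 3. With no filter it also called 803 genes higher and 797 lower over the whole table. Without no-CCL19 replicate 3 it called 235 higher and 278 lower. With a robust prior it called 267 and 262 but 0 members. Members at an unadjusted p under 0.05, 5 with the settings of the report, numbered 8 with DESeq2, 8 with no filter and 2 with the replicate block, and ran from 0 to 13 with 1 library left out. The median of mitochondrial ribosomal proteins ran from 0.10 to 0.18 with 1 library left out, highest without no-CCL19 replicate 2. Leaving out libraries with DESeq2, an alternative added after seeing the data, gave 0 to 7 called members and 2 to 42 called assembly factors. Over all genes these fits gave 20 to 905 called higher and 35 to 799 called lower. The cause was not tested.

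The GC and length offset turned the sign of 2 named members, Rpl15 to -0.0065 and Rpl4 to -0.018. With 1 library left out, 7 of 204 values of the 34 named members changed sign: Rpl11 ranged from -0.056 to 0.058, Rpl39l from -0.096 to 0.75, Rpl4 from -0.010 to 0.042, Rpl5 from -0.11 to 0.046 and Rpsa from -0.0021 to 0.083. Deviations of same-numbered samples correlated at -0.161, 0.0819 and -0.0223, and those of samples with different numbers at -0.210 to 0.214. No pairing by number was seen, but 3 libraries a group are too few to exclude it. The replicate block changed no adjusted call of a member. Members with few counts, Rps4l and Rpl39l, are limited by depth, as their intervals exceed 1.5-fold. With 3 libraries a group, differences of 1.25-fold were bounded for 61 of the 77 members with at least 10 CPM.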

Other observations

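Retrotransposed copies of ribosomal protein genes are listed as genes of their own in the count table. Of 10 such genes matched by symbol, 5 had enough counts to test. Rpl37rt, a copy of Rpl37, stood at 41.1, 43.3 and 46.0 CPM with CCL19 and 38.0, 33.5 and 38.7 CPM without. All CCL19 libraries were higher (log2 fold change 0.24 ± 0.09, edgeR adjusted p = 0.0971), and neither edgeR nor DESeq2 called it. Rpl37 itself stood at 424, 435 and 430 CPM against 444, 438 and 400 CPM (0.01 ± 0.08). Rps27rt, a copy of Rps27, stood at 16.3, 15.5 and 21.6 CPM against 19.0, 18.8 and 18.5 CPM (-0.08), with both extremes in CCL19 libraries. Rpl14-ps1 had 0.20, Rps15a-ps6 -0.07 and Rps19-ps3 0.08. Reads of a copy and of its parent may be exchanged by the counting, which was not tested.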
